A study of Mus musculus with 6 samples.

Results

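The 5 mouse genes of the myosin-binding protein C family, Mybpc1, Mybpc2, Mybpc3, Mybph and Mybphl, were read from a table of 20893 genes by their symbols. All 5 had a row. All 5 also entered the test, for which a gene needed 10 or more in 3 or more libraries, as 14974 genes did. The family was chosen by the difference of Mybpc2 between knockout and wildtype hearts, one of the largest rises, and filled up by gene name. The differences of its members between these groups are therefore a description, given without a test. The table holds 1 value per gene, so the 5 are separate genes and splice isoforms of 1 gene are not told apart.

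Heart RNA of C57BL6/J mice was sequenced as stranded mRNA libraries, 3 from mice with a germline knockout of Rbpms (genotype R1KO) and 3 from wildtype mice. Rbpms encodes an RNA-binding protein. The series describes the controls as littermates and gives the stage both as embryonic and as neonatal, and neither the deleted part of the gene nor whether each library came from a separate animal is stated in the descriptions. Rbpms held 340 to 507 in the knockout and 1176 to 1317 in the wildtype libraries, so reads remained in the knockout. Each value is a rounded product of reads and a scaling factor of the library, and the reads recovered by undoing this totalled 4163230 to 5805674 per library. The tissue was that of its label: the 12 cardiomyocyte markers summed to 29079 to 33790 in every library, with 0 of 12 past the test (limma on log2(value + 1), with a threshold of 0.05 on the Benjamini-Hochberg adjusted p; none passed with voom either, and 1 had an unadjusted p under 0.05, Tnnt2, at a log2 fold change of -0.20). Of these 12 markers 7 exceeded a density of 0.5 recovered reads per exon base, a range taken up below for Mybpc3. Over all 14974 tested genes, 2456 had an unadjusted p under 0.05 by limma. Past the threshold were 0.942%, with 0.508% upward and 0.434% downward. The list counts below stand beside these shares, and 0 passing in a short list is near them.

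Myosin-binding protein C lies along the thick filament of the sarcomere, in the part of the A-band where it binds myosin and titin, and it modulates how myosin heads engage actin. Mybpc3 encodes the cardiac form, in which truncating mutations are a frequent cause of hypertrophic cardiomyopathy. Mybpc1 and Mybpc2 encode the forms of slow and fast skeletal muscle. Mybph and Mybphl encode shorter relatives, Mybph known from skeletal muscle and Mybphl from atrial muscle and the conduction system.

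The stretches just before the start sites of the 3 members with the most reads are shown because these members behaved differently across the libraries. They are the 250 bases before the start site in RefSeq on GRCm38.p6, read 5′ to 3′ on the strand of the gene, at chr7:44524670-44524919 (reverse strand), chr2:91117894-91118143 (forward) and chr3:108364661-108364910 (forward). Capitals mark matches to an E-box (CANNTG), a GATA box (GATAA), an MCAT element (CATTCC, which reads GGAATG on the other strand), a TATA box (TATAAA) or the MEF2 box, each searched on both strands.
Mybpc2: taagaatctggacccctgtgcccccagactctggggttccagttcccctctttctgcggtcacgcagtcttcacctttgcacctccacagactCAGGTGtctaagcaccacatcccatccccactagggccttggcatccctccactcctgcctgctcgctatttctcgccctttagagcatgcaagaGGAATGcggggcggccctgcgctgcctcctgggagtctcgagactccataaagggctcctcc
Mybpc3: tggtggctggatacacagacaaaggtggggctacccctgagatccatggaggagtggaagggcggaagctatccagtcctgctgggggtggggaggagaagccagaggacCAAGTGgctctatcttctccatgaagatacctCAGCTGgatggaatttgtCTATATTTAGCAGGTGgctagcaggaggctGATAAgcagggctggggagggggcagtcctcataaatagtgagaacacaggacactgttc
Mybphl: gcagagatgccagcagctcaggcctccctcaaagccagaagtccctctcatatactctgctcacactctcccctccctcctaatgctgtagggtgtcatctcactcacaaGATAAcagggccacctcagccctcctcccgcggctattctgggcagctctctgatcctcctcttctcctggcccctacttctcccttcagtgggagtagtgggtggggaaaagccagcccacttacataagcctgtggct
The Mybpc3 stretch held 3 E-boxes, at 140, 108 and 80 bases before the start, the last directly behind a MEF2 box at 90, and a GATA box at 60. The Mybpc2 stretch held 1 E-box at 157 and 1 MCAT element at 62, and that of Mybphl 1 GATA box at 140. Of 32851 promoters of this length, 66.2% held an E-box, 22.6% a GATA box, 12.6% an MCAT element, 12.4% a TATA box and 1.7% a MEF2 box. These matches are letters in a window and were not tested as sites.

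Mybpc2, the fast skeletal form, was higher in every knockout library. The gene occupies bases 44151123 to 44174080 of chromosome 7 (mm39, reverse strand). Its knockout values were 197, 267 and 287 and its wildtype values 92, 101 and 88, here and below in the order of replicates 1, 2 and 3. The groups did not overlap, and the knockout libraries spread more widely, at 250 ± 47.3 against 93.7 ± 6.66 (SD, n = 3 each). The ratio of the means was 2.67 and the log2 fold change 1.39 with a standard error of 0.15, on the log2(value + 1) scale. Of the 14974 tested genes, 43 had a higher log2 fold change. These values rest on 75 to 106 recovered reads in each wildtype and 210 to 337 in each knockout library. Mybpc2 was the 1 of 5 members past the threshold in the fit across all genes, where 0.942% of all tested genes passed in either direction and 0.508% upward. It was also the 1 of 5 whose groups did not overlap, where this held for 22.0% of genes. Since the family was chosen through this gene and this comparison, nothing is read from these counts. Across 16 alternative fits its log2 fold change ran from 1.29 to 1.56, and it was not past the threshold in the fits without wildtype replicate 1, 2 or 3, in which 3, 0 and 0 genes passed in all.

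**Figure D1:**
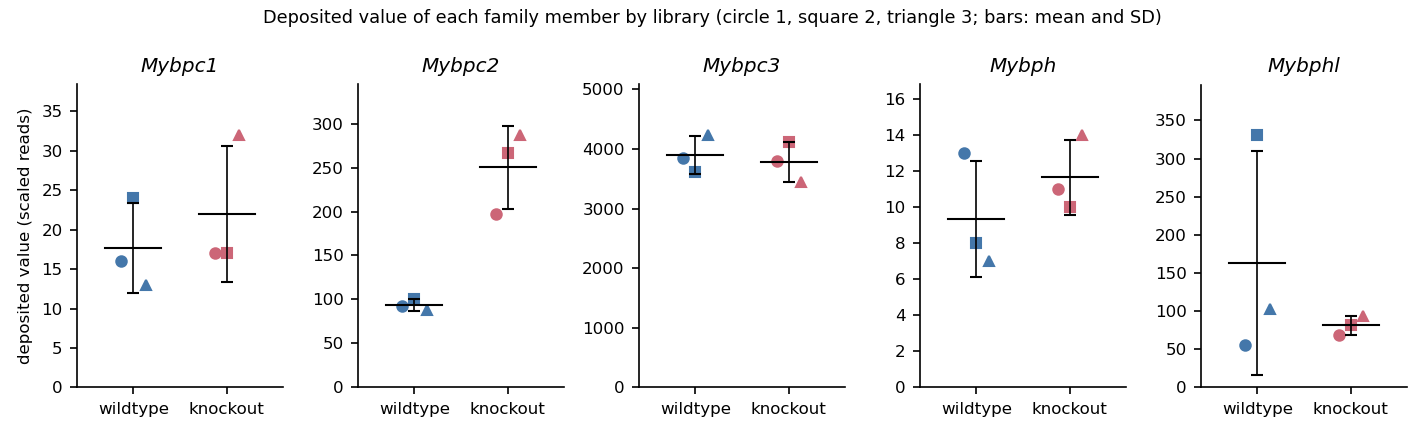
Deposited value (scaled reads, linear axis from 0) of each member in the 3 wildtype and 3 knockout libraries; points are libraries, and bars give the mean and SD. Mybpc2 runs from 88 to 101 in wildtype and from 197 to 287 in knockout, and Mybphl stands at 331 in wildtype replicate 2.

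Mybpc3, the cardiac form, had overlapping values in the 2 groups. The gene spans bases 90948489 to 90966861 of chromosome 2 on the forward strand. Its values were 3803, 4114 and 3438 in the knockout and 3842, 3618 and 4233 in the wildtype libraries. The groups overlapped widely, at 3785 ± 338 against 3898 ± 311 (SD, n = 3 each), with a log2 fold change of -0.04 and a standard error of 0.08.

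Mybpc3 was the gene with the densest reads of all. Over the 6 libraries it averaged 0.925 recovered reads for each base of its exons. No other of the 14710 tested genes with an exon length had as high a mean, the median gene stood at 0.0501, and 77 genes lay above 0.5. Its libraries ran from 0.862 to 0.975, so no library reached 1 read per base. The recovered reads of Mybpc3 were 4058, 3962 and 4033 in the knockout and 3686, 3781 and 3588 in the wildtype libraries. They differed by at most 1.13 times, while the library factors, and thus the depths, differed by 1.38 times. Before scaling, the knockout libraries were all higher. After scaling, the highest value stood in wildtype replicate 3, which has the largest factor, 1.1798, and the lowest in knockout replicate 3, which has the smallest, 0.8524. The submitters' processing notes name Picard, which can discard reads that share a start position and would then limit how many reads a gene can hold, but its use is not stated. Whether a value this close to 1 read per base still follows the amount of RNA was not tested, and a fold change near 0 does not show that the level was the same.

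**Figure D2:**
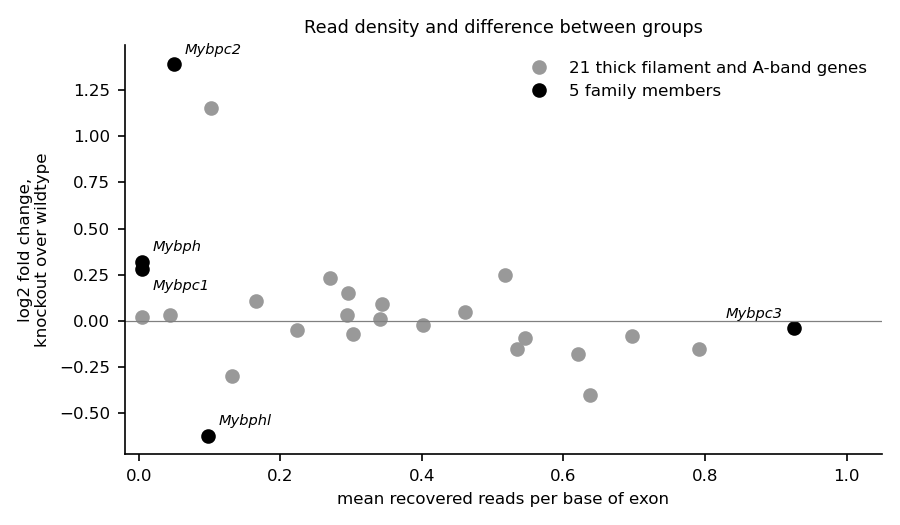
Log2 fold change of knockout over wildtype (limma) against the mean recovered reads per base of exon for the 5 members (black) and 21 thick filament and A-band genes (grey). Mybpc3 stands at 0.925 reads per base and -0.04, and Mybpc2 at 0.0495 reads per base and 1.39.

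Mybphl, on chromosome 3 from 108272227 to 108287373 on the forward strand, varied mainly through 1 library. Its values were 69, 82 and 93 in the knockout and 56, 331 and 103 in the wildtype libraries. Wildtype replicate 2 stood 4.04 times above the median of the other 5 libraries, which ran from 56 to 103 with the groups interleaved. The group values were 81.3 ± 12 in the knockout and 163 ± 147 in the wildtype (SD, n = 3 each), and the log2 fold change of -0.62 was no larger than its standard error of 0.62. Without wildtype replicate 2 the log2 fold change was 0.09, and without wildtype replicate 1, the lowest library, it was -1.18. Among 11710 tested genes with a mean value of at least 50, 36 stood more than 2-fold above the median of the others in wildtype replicate 2, and Mybphl ranked 5 by this ratio.

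Genes of atrial muscle were high in the same library. Of the 11710 genes with a mean value of at least 50, 14.1% had their highest value in wildtype replicate 2. Of 14 atrial genes, not held to that limit (Fgf12 lay below it), 11 had their highest value in that library. The 14 genes summed to 6706 there, to 4803 and 4821 in the other wildtype libraries and to 4751 to 4949 in the knockout. Fgf12, an intracellular factor that modulates sodium channels, held 215 there and 9 to 22 in the other 5 libraries. Sln, which encodes the atrial calcium pump regulator sarcolipin, held 207 against 53 to 106, and Kcnj3, a subunit of the acetylcholine-gated potassium channel, 475 against 147 to 294. The atrial peptide gene Nppa did not follow, at 691 against 699 to 763, with a mean of 0.853 recovered reads per base. Adm and Kcna5 were also not highest there. In bulk tissue, fewer cells of a type and less RNA per cell cannot be told apart, and the part of atrial tissue in the Mybphl values was not tested.

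**Figure D3:**
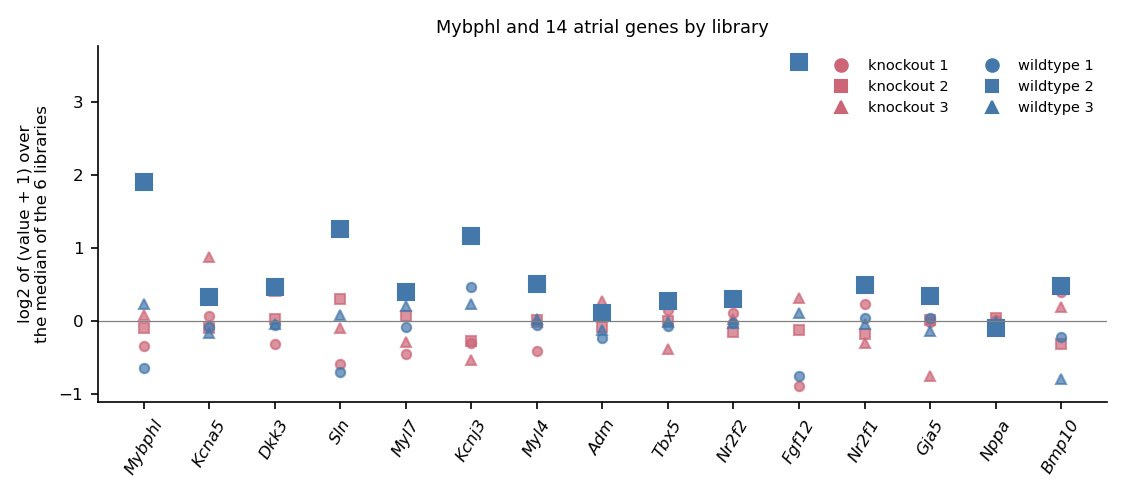
Log2 of (value + 1) over the median of the 6 libraries for Mybphl and 14 atrial genes; colour gives the group, shape the replicate, and large squares mark wildtype replicate 2. Mybphl (331) and 11 of the 14 atrial genes are highest in that library.

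Between the groups, 0 of 14 tested atrial genes passed (limma, 2 at an unadjusted p under 0.05, 0 by voom on recovered reads). Their median log2 fold change was -0.20 beside 0.0 over all genes, and 0.05 without wildtype replicate 2. Kcnj3 had the smallest p, at 165 ± 15.6 in the knockout against 339 ± 120 in the wildtype (SD, n = 3 each; limma, log2 -0.98, adjusted p = 0.0983). Of 14 tested conduction system genes, which Mybphl also marks, 0 passed (limma, 4 at an unadjusted p under 0.05, 0 by voom on recovered reads), with a median of -0.10. The fit without knockout replicate 3 put 2 higher and 1 lower, with a median of 0.04, and that without knockout replicate 2 put 3 lower. With no filter on low values and with a term for sex 1 was lower. The pacemaker calcium channel Cacna1d had the smallest p among them (limma, log2 -0.54, adjusted p = 0.0632). In the ventricular list 1 of 8 genes fell, the Notch-responsive repressor Hey2 (limma, log2 -0.46, adjusted p = 0.0219), and 0 rose, where 0.434% of all tested genes fell. The median of the 8 was -0.21, with 7 below 0, and it was -0.05 without knockout replicate 3, a fit that put 1 gene higher. Hey2 was not past the threshold with the replicate number as a block or without knockout replicate 1 or any 1 of the wildtype replicates.

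Mybpc1 and Mybph, forms known from skeletal muscle, were barely detected. Mybpc1 (reverse strand of chromosome 10, bases 88354141 to 88441014) held 17, 17 and 32 in the knockout and 16, 24 and 13 in the wildtype libraries. The groups overlapped, with a log2 fold change of 0.28 and a standard error of 0.34 that was -0.01 without knockout replicate 3, the highest library. Mybph, on chromosome 1 from 134121186 to 134128970 on the forward strand, held 11, 10 and 14 against 13, 8 and 7. Its groups overlapped too, at a log2 fold change of 0.32 with a standard error of 0.34. Mybpc1 rested on 11 to 38 and Mybph on 6 to 16 recovered reads in a library, and neither log2 fold change exceeded its standard error. How large a difference could be detected at this depth was not tested.

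Per kilobase of exon, the order of the levels in wildtype hearts was Mybpc3, Mybphl, Mybpc2 and then Mybph and Mybpc1. The wildtype values per kilobase were 936 ± 74.8 for Mybpc3, 128 ± 115 for Mybphl, 25.9 ± 1.84 for Mybpc2, 4.01 ± 1.38 for Mybph and 3.9 ± 1.26 for Mybpc1 (SD, n = 3). Mybph and Mybpc1 did not differ beyond their spread. Mybphl lay above Mybpc2 in all 3 wildtype libraries, at 43.9, 259 and 80.7 against 25.5, 28 and 24.4. In the knockout libraries the levels of this pair met, with Mybphl at 54.1, 64.3 and 72.9 and Mybpc2 at 54.6, 73.9 and 79.5. Of the summed level per kilobase of the 5 genes, Mybpc2 held 5.29%, 6.52% and 8.02% in the knockout and 2.54%, 2.4% and 2.16% in the wildtype libraries. Mybpc3 held 83.3% to 88.6% in the knockout and 74.6% to 92.2% in the wildtype, where the lowest share was that of wildtype replicate 2. Whether the Mybpc3 value follows the amount of RNA, which was not tested, bears on these shares too.

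**Figure D4:**
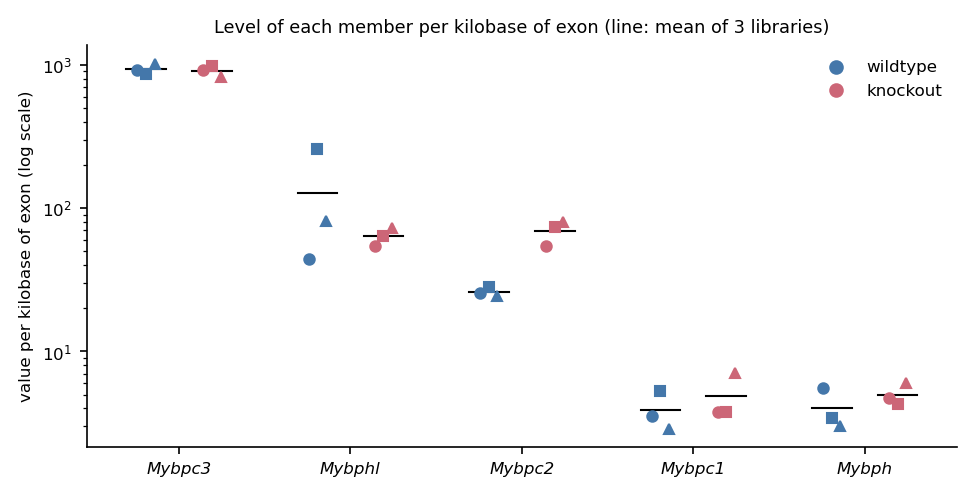
Value per kilobase of exon (log axis) of each member in the 3 wildtype and 3 knockout libraries; points are libraries and lines group means. The ranges of Mybphl and Mybpc2 are apart in wildtype (43.9 to 259 and 24.4 to 28) and overlap in knockout (54.1 to 72.9 and 54.6 to 79.5).

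No other gene of fast or general skeletal muscle passed the test upward beside Mybpc2. Of 26 listed genes 25 were measured and 18 tested. Of these 18, 0 rose and 3 fell by limma, where 0.508% of all tested genes rose and 0.434% fell. By voom on recovered reads 0 rose. By limma 5 genes of the list had an unadjusted p under 0.05, beside 2456 of all 14974 tested genes. The median log2 fold change was -0.25 beside 0.0 over all genes, with 4 fold changes above and 14 below 0. It was -0.13 without wildtype replicate 2, where 10 of the 25 measured genes had their highest value, and -0.12 with no filter on low values. The 4 above 0 were Mylk4, Myh3, Actn3 and Cacna1s, at log2 fold changes of 1.17, 0.99, 0.54 and 0.4 (SE 0.49, 0.41, 0.37 and 0.47). Mylk4 held 202, 101 and 343 in the knockout and 61, 130 and 76 in the wildtype libraries (limma adjusted p = 0.307). Myh3, Actn3 and Cacna1s held 4 to 20, 6 to 14 and 7 to 25. The groups overlapped in each of the 4. The 3 that fell were Casq1, Myoz1 and Klhl41, which adult or developing heart also expresses. Casq1, the calcium buffer calsequestrin of skeletal sarcoplasmic reticulum, held 211, 263 and 224 in the knockout and 415, 357 and 409 in the wildtype libraries (limma, log2 -0.76, SE 0.10, adjusted p = 0.0221). Myoz1, a Z-disc protein that binds calcineurin, held 62, 55 and 55 against 107, 100 and 103 (log2 -0.84, SE 0.14, limma adjusted p = 0.0399). Klhl41, which stabilises the thin filament protein nebulin, held 536, 586 and 505 against 685, 708 and 724 (log2 -0.38, SE 0.07, limma adjusted p = 0.0499). In all 3 genes every knockout library lay below every wildtype library. The groups did not overlap in 22.0% of all tested genes, and these 3 were named because they passed the threshold. Nothing is therefore read from this order. The number of list genes that fell was 0 with the replicate number as a block, 0 without knockout replicate 1 and 0 without any 1 of the wildtype replicates. It was 2 with a pseudocount of 0.5, without robust moderation and in both voom fits.

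The genes of fast fibres ran from near 0 to the range of Mybpc2. The fast myosins Myh1 and Myh2 held 2 to 9 and 0 to 4, the calcium buffer Pvalb 1 to 7 and the calcium release channel Ryr1 1 to 7. The fast regulatory light chain Mylpf held 16 to 31 and the fast troponins Tnni2 and Tnnt3 24 to 48 and 18 to 48. The light chain gene Myl1, which the atria also express in development, held 69, 76 and 78 in the knockout and 101, 164 and 97 in the wildtype libraries (limma, log2 -0.65, adjusted p = 0.162). The list summed to 5614 to 6116 in the knockout and 6248 to 6879 in the wildtype libraries, mostly through metabolic genes such as Pygm, Ckm and Eno3 that the heart shares. Of 10 myogenic factors and satellite cell genes 5 were measured and 0 tested, summing to 6 to 20 in the knockout and 5 to 8 in the wildtype libraries. Of 5 tested slow skeletal genes 0 passed (limma, 0 at an unadjusted p under 0.05, 0 by voom), with a median of 0.02, and Tnni1, the slow troponin I of the fetal heart, had the smallest p (limma, log2 -0.15, adjusted p = 0.459).

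**Figure D5:**
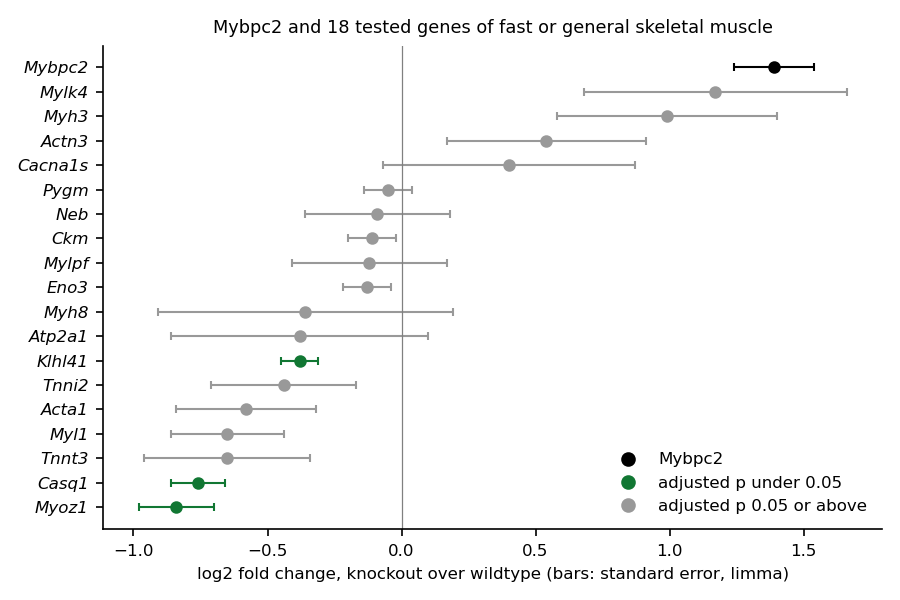
Log2 fold change of knockout over wildtype with its standard error (limma) for Mybpc2 (black) and 18 tested genes of fast or general skeletal muscle; green marks an adjusted p under 0.05. Mybpc2 stands at 1.39, while Casq1, Myoz1 and Klhl41 stand at -0.76, -0.84 and -0.38.

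No gene of a list for the thick filament and A-band passed the test. Of 21 thick filament and A-band genes, all tested, 0 passed (limma, 5 at an unadjusted p under 0.05, 0 by voom on recovered reads), and their median log2 fold change was 0.01. Over all 14974 tested genes 0.942% passed and 2456 had an unadjusted p under 0.05 by limma, so 0 of 21 is near the share of all genes. Myh7, the slow myosin heavy chain, had the smallest p, with 4834, 4994 and 4560 in the knockout and 3902, 4047 and 4111 in the wildtype libraries (limma, log2 0.25, SE 0.06, adjusted p = 0.0901). The groups of Myh7 did not overlap, which held for 22.0% of all tested genes. In the list 1 gene was higher without knockout replicate 2 and 1 without knockout replicate 3. Trim54, a muscle ring finger protein of the sarcomere singled out after its values were seen, held 210, 121 and 250 against 73, 119 and 65 (limma, log2 1.15, SE 0.32, adjusted p = 0.147). Of the 21 genes 7 lay above 0.5 recovered reads per base, where Mybpc3 also stood.

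Enzymes and anchors that set the phosphorylation of myosin-binding protein C gave 0 of 20 past the threshold (limma, 5 at an unadjusted p under 0.05, 0 by voom on recovered reads) and a median of -0.05. Over all 14974 tested genes 0.942% passed and 2456 had an unadjusted p under 0.05 by limma, so 0 of 20 is near that share. Akap6, the anchoring protein of protein kinase A at the nuclear envelope, had the smallest p, with 1239, 1185 and 1136 in the knockout and 843, 1004 and 925 in the wildtype libraries (limma, log2 0.36, SE 0.08, adjusted p = 0.0636). Each of 3 fits (a term for sex, no filter on low values, and without knockout replicate 3) put 1 gene of this list higher, and the fit without knockout replicate 2 put 1 lower.

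None of the 11 tested genes next to the members passed, where 0.942% of all tested genes did. Nothing is read from so small a count. Taking the 2 nearest genes on each side and any that overlap gave 20 genes, of which 11 were tested and 0 passed (limma, 1 at an unadjusted p under 0.05, Chpt1 next to Mybpc1 at a log2 fold change of -0.20, and 0 by voom on recovered reads). Near Mybpc2, Pold1, the catalytic subunit of DNA polymerase delta, held 188, 276 and 214 in the knockout and 307, 245 and 276 in the wildtype libraries (limma, log2 -0.30, adjusted p = 0.346). Gm44646 overlaps 2568 bases of Mybpc2 on the other strand and held 12, 18 and 10 against 5, 10 and 8 (log2 0.73, limma adjusted p = 0.365). Adora1, an adenosine receptor, overlaps 2010 bases of Mybph on the other strand and held 321 to 481, far above the 7 to 14 of Mybph. Gm12522, at 2 to 9, overlaps 781 bases of Mybphl on the other strand. The libraries are stranded, but no source states whether reads were counted by strand, so reads of these pairs may not be told apart.

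The genes whose profile over the 6 libraries was most like that of Mybpc2 were Trpv4, Eppk1, Cdkn1a, Krt8 and Prg4. Likeness was the root mean square distance of log2(value + 1), centred on the wildtype mean, and was 0.22 for Trpv4, 0.23 for Eppk1 and 0.25 for each of the other 3, against a median of 1.0 over 11229 genes. Trpv4, a calcium channel that responds to osmotic and mechanical stimuli, held 72, 82 and 83 in the knockout and 35, 33 and 37 in the wildtype libraries. Eppk1, the keratin-binding cytolinker epiplakin, held 60, 62 and 100 against 27, 36 and 29. Cdkn1a, the p21 inhibitor of cyclin-dependent kinases, held 677, 571 and 807 against 270, 322 and 293. The measure includes the difference between the groups, so that these genes were higher in the knockout follows from how they were chosen.

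Proteins of the RBPMS family are known to bind RNA at pairs of CAC triplets. Pairs separated by 1 to 12 bases were counted in the longest coding transcript of each gene (GENCODE M21, GRCm38). Mybpc2 held 19 in 3611 bases, or 5.26 per kilobase, which is percentile 84.5 of 13179 tested genes, whose median was 3.02. Mybpc3 held 4.32 per kilobase (percentile 73.8), Mybphl 5.49 (86.4), Mybph 8.19 (96.8) and Mybpc1 2.04 (28.0). A pair is a match of letters, binding was not measured here, and introns were not searched.

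Markers of other cells gave 0 genes past the threshold in each of 6 lists, both by limma and by voom on recovered reads: 8 fibroblast, 8 endothelial, 6 smooth muscle, 6 epicardial, 6 leukocyte and 5 erythroid genes. At an unadjusted p under 0.05 by limma the numbers were 2, 1, 3, 2, 2 and 0, beside 2456 of all 14974 tested genes, of which 0.942% passed. In the alternative fits at most 2 genes of a list passed in 1 direction. The genes with the smallest p were Tcf21 (log2 0.38), Emcn (0.41), Myh11 (-0.61), Wt1 (0.28), Lyve1 (0.81) and Alas2 (0.71), in the same order, with limma adjusted p from 0.057 to 0.571. The list medians were -0.08, 0.08, -0.18, -0.39, 0.07 and 0.0. Tcf21 and Wt1 had the opposite sign to most of their lists, in which 6 of 8 and 5 of 6 fold changes were below 0. The epicardial median was -0.01 without knockout replicate 3, whose epicardial sum was 705 against 1285 to 1495 in the other libraries. It was -0.61 without knockout replicate 1 and -0.68 without knockout replicate 2. Without knockout replicate 3 the smooth muscle median was -0.30, and without wildtype replicate 3 the erythroid median was 0.11. The endothelial sum was 8191 to 8626 in the knockout and 7585 to 7845 in the wildtype libraries. The leukocyte sum was 1095 to 1313 against 917 to 1024. These 2 sums did not overlap between the groups, but each did once 1 gene was left out. That gene was Npr3 in the endothelial list, at 910, 619 and 996 against 502, 774 and 459. In the leukocyte list it was Lyve1, at 559, 379 and 545 against 265, 321 and 251. The groups of Npr3 itself overlapped. Pecam1, Tie1 and Emcn of the endothelial list, and Lyve1 and Mrc1 of the leukocyte list, were higher in every knockout library. Cd68 of the leukocyte list was lower in every knockout library, and the groups overlapped in the rest of both lists. Over all tested genes the groups did not overlap in 22.0%. Fold changes were above 0 in 6 of 8 endothelial and 3 of 6 leukocyte genes. The part of these cell types in the Mybpc2 values was not tested. In the other 4 lists the sums of the groups overlapped.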

How the data were processed

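The submitters' processing notes name, without role or order, Trimmomatic (0.39), STAR (2.7.11a), Picard (3.0.0), featureCounts (2.0.4), DESeq2 (1.36.0) and the build mm39. The deposited numbers are a score: the authors scaled the reads of each gene by a library factor and rounded to whole numbers, as the spacing of the low values shows. The use of Picard is not stated. Factors were estimated from values under 400, and dividing by them gave the recovered reads.

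The members and gene lists were chosen with earlier results of these data known. Genes that held 10 or more in 3 or more libraries were fitted with limma 3.58.1 (statmod 1.5.0, R 4.3.3) on log2(value + 1), using trended and robust moderation, all 6 libraries and no covariate. The Benjamini-Hochberg adjustment ran over all of them. Fold changes understate the change of low genes. Since separate animals are not stated, p-values reflect the spread of these samples alone, which may be technical. Scripts were tested on simulated data. Exon lengths came from GENCODE M21, matched by gene identifier for 98.2% of tested genes. Alternatives covered pseudocount, scaling, filter, moderation, voom, the replicate number as a block, a term for sex (2 libraries with more Xist than Y-linked reads, 1 in each group) and each library left out.

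The text names the members, Rbpms, some of the genes next to the members (the others by count) and the 5 genes most like Mybpc2. Of each tested list it names up to 4 genes past the threshold or the one with the smallest p. Further genes of the skeletal, atrial, thick filament and endothelial lists were named outside this rule. 2 genes of the marker lists are not reported here and were left out of the lists.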

Additional observations from a re-analysis of the deposited data

How the results depend on the processing

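The 141 changed genes, 53.9% of them higher, became 218 with no filter on low values, 90 without robust moderation, 72 with voom on the deposited values, 73 with voom on recovered reads and 223 with a term for sex. With each library left out in turn the count ran from 0 to 727 (0 without wildtype replicate 2 or 3, with 2176 and 1852 genes at an unadjusted p under 0.05 by limma), and the number of members past the threshold ran from 0 to 1. The share higher fell to 40.0% with upper quartile scaling, 42.0% with scaling to the deposited total, and 38.9% and 37.0% in the 2 voom fits. With the replicate block 23 genes changed, Mybpc2 among them. Its log2 fold change of 1.39 could not change in that fit, as each replicate number holds 1 library of each group. Same-numbered libraries did not deviate together (correlations of -0.17, -0.11 and -0.13). With 3 libraries in each group this cannot exclude that the samples were paired.

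Over the alternatives the log2 fold change ran from -0.01 to 0.51 for Mybpc1, from -0.11 to 0.02 for Mybpc3, from 0.16 to 0.57 for Mybph and from -1.18 to 0.09 for Mybphl. Of 80 recomputed member fold changes 4 had the other sign than in the report: Mybpc1 without knockout replicate 3, Mybpc3 without knockout replicate 3 and without wildtype replicate 3, and Mybphl without wildtype replicate 2. The fits with the replicate block, with the term for sex, with no filter and without robust moderation return each of these fold changes unchanged by design. The few reads of Mybpc1 and Mybph limit what can be detected in them.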
